A study of Mus musculus with 3 samples.

Results

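Melanoma cells in which no proliferation transcript was counted made up 1539 of the 18302 deep melanoma cells in 3 single-cell libraries of mouse tumors, and of 27374 cell barcodes in all. A barcode counted as a melanoma cell when it held at least 10000 UMIs (unique molecular identifiers, 1 per captured RNA molecule), at most 20% of them from mitochondrial (mt-) genes, and at least 0.5% of them from Dct and Pmel, a pair of genes for melanin synthesis and melanosome structure. Members held 0 UMIs of all 6 of Mki67, Top2a, Pclaf, Rrm2, Ccnb1 and Cenpf. They were compared with 11581 cycling cells, the melanoma cells that held UMIs of at least 4 of the 6 genes, and 5182 cells with 1 to 3 of the genes lay between. By library, 612, 273 and 654 members came from shMib2 replicate 1, shMib2 replicate 2 and shCtrl.

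The tumors were grown from B16-F10, a mouse melanoma line, in C57BL/6J mice of 6 to 8 weeks. Each library was made from the pooled tumors of 3 mice, dissociated to single cells and run on the 10x Genomics platform. The injected cells carried short hairpin RNA against Mib2, an E3 ubiquitin ligase, or a control hairpin (the library labelled shCtrl). The control group is thus a single pool. The 2 libraries labelled shMib2 are called replicate 1 and replicate 2 here. Their labels do not say whether they are different hairpins or different cultures, and taking them as replicates is an assumption. The study asked how tumor Mib2 bears on PD-L1 and antitumor immunity. A lower Mib2 level was not detectable in the shMib2 libraries among the cells described here. Mib2 stood at 3.08 and 1.98 CPM (UMIs of the gene per 1000000 UMIs of the summed cells) in members of the shMib2 libraries and at 2.91 CPM in members of the shCtrl library, from 37, 18 and 38 UMIs. The log2 difference was -0.19 ± 0.38 (SE; edgeR adjusted p = 0.934). In cycling cells Mib2 stood at 2.97 and 2.555 CPM in the shMib2 libraries and at 2.34 CPM in shCtrl, from 368, 344 and 398 UMIs. Directions between libraries below are therefore directions between labels.

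The 6 genes work at separate steps of cell division. Rrm2 is a subunit of ribonucleotide reductase, which makes the deoxynucleotides of replication, and Pclaf binds the replication clamp PCNA. Top2a untangles DNA, Cenpf sits at the kinetochore, Ccnb1 is the cyclin of mitotic entry, and Mki67 coats mitotic chromosomes and is the usual marker of cycling cells. NF-Y activates many such genes at CCAAT boxes, and in cells that have left the cycle they are held silent by DREAM and RB complexes at E2F sites and at the cell cycle genes homology region. In melanoma, cells with little division are known from poorly oxygenated regions and from slowly cycling, drug-tolerant states.

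The windows before the start of 3 of these genes are printed to show the CCAAT boxes that all 3 hold and the homology region words of Top2a and Mki67, with 3 words in capitals on either strand: the NF-Y box CCAAT, which reads ATTGG on the reverse strand, and the homology region in the form TTTGAA or in the form TTCGAA. They are RefSeq sequences of build GRCm38.p6, read 5′ to 3′ along the gene and ending at the base before its start, for Top2a at chr11:99024190-99024389 on the minus strand, Mki67 at chr7:135716380-135716579 on the minus strand and Ccnb1 at chr13:100786487-100786606 on the minus strand.
Top2a: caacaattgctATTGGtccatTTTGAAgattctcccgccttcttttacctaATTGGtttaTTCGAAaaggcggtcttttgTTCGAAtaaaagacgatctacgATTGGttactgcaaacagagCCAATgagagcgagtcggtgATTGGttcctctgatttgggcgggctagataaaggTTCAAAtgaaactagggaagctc
Mki67: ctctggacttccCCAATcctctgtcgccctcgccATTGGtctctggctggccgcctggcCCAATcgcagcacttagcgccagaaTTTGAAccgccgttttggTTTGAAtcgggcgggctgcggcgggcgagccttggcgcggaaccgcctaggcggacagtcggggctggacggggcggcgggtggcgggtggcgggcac
Ccnb1: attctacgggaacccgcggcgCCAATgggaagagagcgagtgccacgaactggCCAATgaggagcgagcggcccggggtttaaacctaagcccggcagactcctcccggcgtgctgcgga

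Over windows of 300 bases (250 before and 50 after each start), CCAAT lay in those of all 6 genes, against 41.1% of the 27025 genes with a window. TTTGAA or TTCGAA lay in those of Top2a, Mki67 and Cenpf, 3 of the 6, against 21.7% of genes. The E2F words GGCGGGAA, TTTGGCGC and TTTCCCGC were found in 1 of the 6, Pclaf, against 3.69% of genes. These are letter matches on both strands, and no binding was measured.

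Members were found in every library at 7.07% to 9.48% of melanoma cells. The share was 9.48% in shMib2 replicate 1 (95% Wilson interval 8.79 to 10.2), 7.07% in shMib2 replicate 2 (6.3 to 7.92) and 8.19% in shCtrl (7.61 to 8.81). Cycling cells were 61.4%, 66.1% and 63.4% of the same cells. The intervals cover counting error only, and the exact permutation test of 1 library against 2 cannot give a p below 0.33, so no test of the label was made.

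The shares moved with sequencing depth, and so did their order. Median UMIs per member were 19017.5, 33363 and 19385.5 in shMib2 replicate 1, shMib2 replicate 2 and shCtrl, against 29505, 50022.5 and 31273 in cycling cells of the same libraries. With every cell thinned at random to 10000 UMIs, cells without the 6 transcripts came to 17.4%, 19.8% and 16.1%. Among cells of 20000 to 40000 UMIs they were 6.02%, 14.8% and 5.59%. The library with the lowest share at full depth, shMib2 replicate 2, thus had the highest after thinning and within the window. A cell with few UMIs can lack the 6 transcripts by sampling alone, and how many members do so was not tested.

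**Figure D1:**
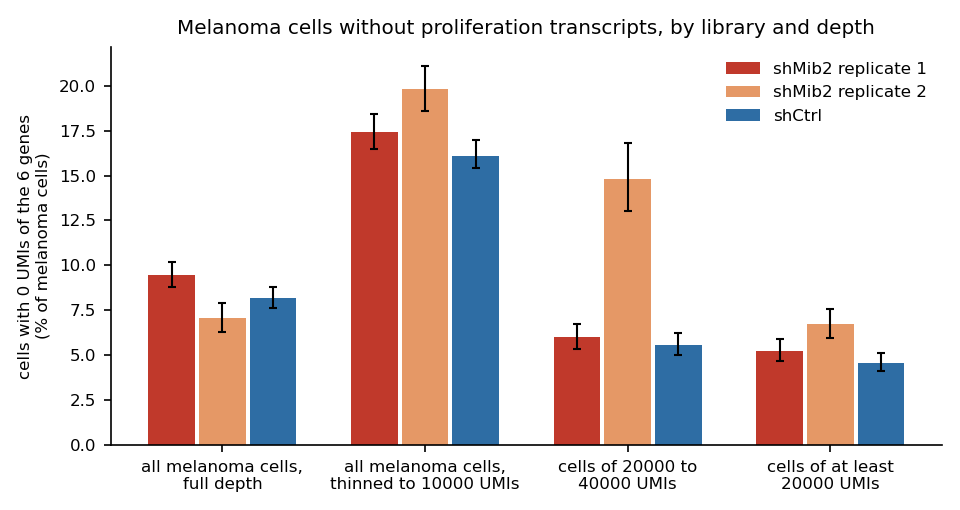
Cells with 0 UMIs of the 6 genes as a percentage of melanoma cells (vertical axis) in 4 settings of depth (horizontal axis), for shMib2 replicate 1, shMib2 replicate 2 and shCtrl; bars are shares and lines are 95% Wilson intervals. Thinning to 10000 UMIs raised the 3 shares to between 16.1% and 19.8%, and shMib2 replicate 2 stood lowest at full depth and highest in the other settings.

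Members also differed from cycling cells in general measures of the barcode. The median mitochondrial share was 4.66%, 4.36% and 4.52% in members of shMib2 replicate 1, shMib2 replicate 2 and shCtrl, against 3.81%, 3.65% and 3.75% in cycling cells. At 10000 UMIs a member held a median of 2970, 2897 and 2917 genes, against 3143, 3069 and 3074.5 genes in a cycling cell. The pigment genes that define a melanoma cell were present at a median of 1.38%, 1.41% and 1.48% of UMIs in members and 1.14%, 1.28% and 1.22% in cycling cells. No barcode sequence was shared between members of any pair of libraries, and 4 to 9 were shared between cycling cells of library pairs.

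Beside the limit of 0 UMIs, the S phase list summed to 345.5, 279.7 and 332 CPM in members of shMib2 replicate 1, shMib2 replicate 2 and shCtrl, against 422, 328 and 407 CPM in cells with exactly 1 UMI of the 6 genes. The hypoxia list summed to 6688, 7182 and 6894 CPM in members, against 6081, 6810 and 6463 CPM in these 566, 321 and 680 cells. Of the members, 16, 1 and 15 had under 11000 UMIs, 11, 9 and 14 had under 0.6% Dct and Pmel, and the highest mitochondrial share was 18.1%, 17.3% and 16.9%.

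Other cycle genes were low in members as well, which the choice of members makes likely, since they are transcribed together with the 6, and their values are given as a description. A list of 27 S phase genes summed to 345.5, 279.7 and 332 CPM in members of shMib2 replicate 1, shMib2 replicate 2 and shCtrl, and 27 genes of G2 and mitosis to 201.5, 156 and 202 CPM. In cells with all 6 genes the S phase list stood at 2328, 2232 and 2254 CPM and the mitotic list at 4273, 3953 and 4332 CPM. Between the ends the S phase list climbed mainly from 2 to 4 genes detected, and the mitotic list from 4 to 6. The cycle lists were therefore low in members but not at 0. After thinning, the median member held 3 S phase UMIs in every library and 1 or 2 mitotic UMIs per 10000, against 18 to 19 and 23 to 29 in the median cycling cell.

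**Figure D2:**
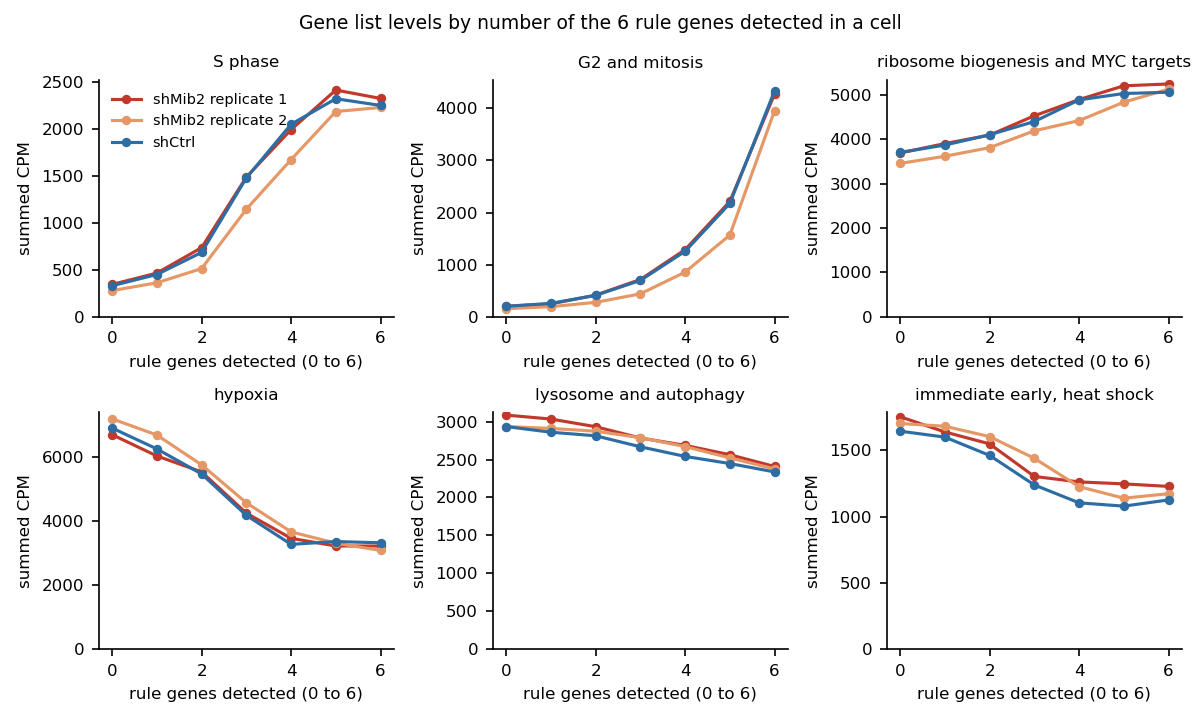
Summed CPM of 6 gene lists (vertical axes, starting at 0) against the number of the 6 rule genes detected in a cell, 0 (members) to 6 (horizontal axes), for the 3 libraries as lines. The S phase, mitotic and ribosome biogenesis lists stood higher at 6 genes than at 0 in every library, with some turns between 4 and 6, and the hypoxia, lysosome and immediate early lists stood lower, the hypoxia list at 3214, 3077 and 3315 CPM in shMib2 replicate 1, shMib2 replicate 2 and shCtrl.

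Beyond the cycle, members and cycling cells differed in a large share of the genes tested. UMI counts were summed per library and state, and the sums were compared with edgeR's quasi-likelihood test with the library as a block. Of 14650 genes tested, 3838 (26.2%) were higher in members and 4245 (29%) were lower at a Benjamini-Hochberg adjusted p under 0.05; the median log2 fold change over all genes was 0.01. The 2 states were cut from the same cells by measured transcripts, the spread is that between 3 libraries with 2 residual degrees of freedom, and much of the genome passed, so a single gene's passing is weak news and the size of a change is given with each named gene. The counts were of like size in cells of 20000 to 40000 UMIs, at 3069 higher and 3184 lower of 12172 tested. Counts of higher and lower genes in each list below are to be read beside the 26.2% and 29% over all genes.

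The genes with the largest rise in members, outside the cycle lists, were led by Kcnj13, an inwardly rectifying potassium channel known from pigmented epithelium. Kcnj13 (chr1:87386363-87394729, GRCm38, minus strand) stood at 90.5, 87.3 and 103 CPM in members of shMib2 replicate 1, shMib2 replicate 2 and shCtrl, against 13.2, 13.5 and 10.2 CPM in cycling cells. The difference was 2.94 ± 0.08 on the log2 scale (SE, n = 3 libraries; edgeR adjusted p = 2.08e-14). Along the number of cycle genes detected, Kcnj13 fell to 8.19 to 9.35 CPM at 6 genes. Tnfrsf9, the costimulatory receptor 4-1BB, had 41.2, 59.5 and 39.8 CPM in members against 6.53, 6.34 and 7.43 CPM in cycling cells, a rise of 2.75 ± 0.11 (SE; edgeR adjusted p = 3.25e-12).

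Signaling peptides and structural genes followed. Nppb, which encodes a natriuretic peptide, stood at 107, 86.4 and 58.1 CPM in members against 19.4, 16 and 12.4 CPM in cycling cells (log2 fold change 2.37). Pgf, placental growth factor of the VEGF family, stood at 55.2, 89.4 and 50.6 CPM against 12.8, 14.1 and 11 CPM (2.33). Between shMib2 and shCtrl members Nppb differed by 0.73 (edgeR adjusted p = 0.266) and Pgf by 0.50 (edgeR adjusted p = 0.803), and neither passed. Pkp2, a desmosomal plaque protein, rose by 1.90, Espn, an actin bundling protein, by 1.73 and Selenbp1, a selenium-binding protein, by 1.68 on the log2 scale.

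Chromatin and transcription regulators were also among the 12 largest. Mxd4 (chr5:34173883-34187720, minus strand), a MAX partner that competes with MYC, had 73.9, 72.6 and 75.5 CPM in members against 20.8, 20.4 and 20.7 CPM in cycling cells. Its mean was 74.03 ± 1.44 CPM in members and 20.6 ± 0.207 CPM in cycling cells (SD, n = 3 libraries each), and the log2 fold change was 1.84 ± 0.05 (SE; edgeR adjusted p = 8.425e-15). Kdm5b, an H3K4 demethylase that marks slowly cycling melanoma cells in human lines, had 113, 99.97 and 106 CPM in members against 33.5, 33.4 and 33.8 CPM in cycling cells, a rise of 1.66 ± 0.04 (edgeR adjusted p = 1.00e-14). Kdm7a, another histone demethylase, rose by 1.70 ± 0.05. These levels were not particular to members. Cells with 1 of the 6 rule genes stood at 72.8, 69.8 and 71.6 CPM for Mxd4 in shMib2 replicate 1, shMib2 replicate 2 and shCtrl. For Kdm5b they stood at 101.9, 100.9 and 98.3 CPM.

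The genes that fell most outside the cycle lists were division genes that those lists did not hold, and the caution given for the lists applies to them. Knl1, a kinetochore scaffold, stood at 0.58, 0.55 and 0.84 CPM in members against 51, 46.3 and 48.6 CPM in cycling cells. Aspm, Fbxo5, Sgo2a, Pbk, Ckap2l, Pimreg, Prc1, Rad51ap1, Clspn, Sgo1 and Kif20b had log2 fold changes of -6.10 to -4.92.

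**Figure D3:**
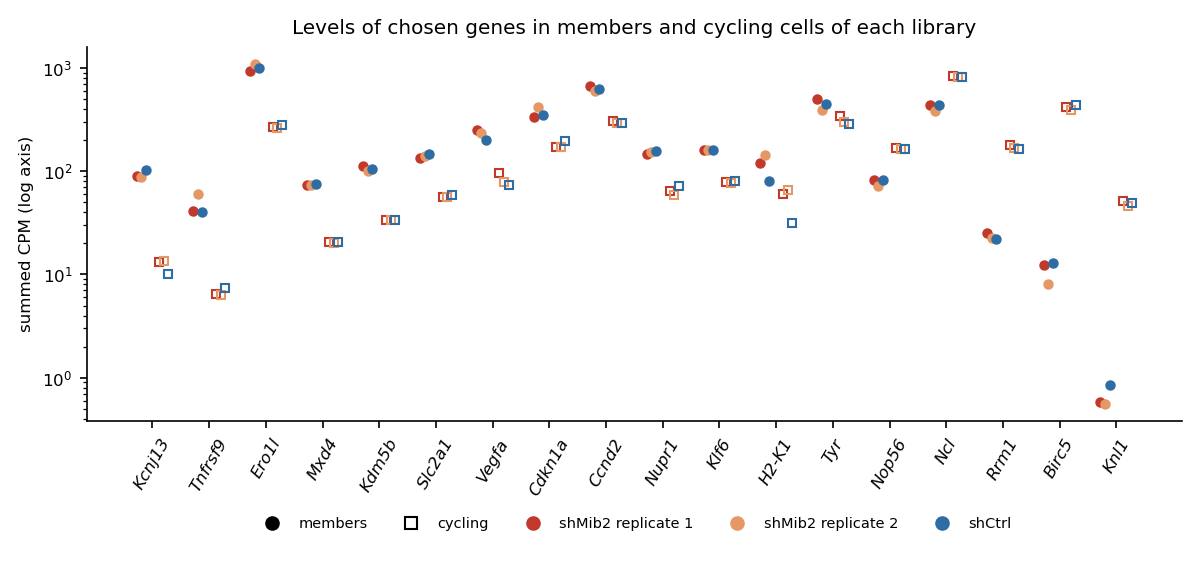
Summed CPM on a log axis (vertical) of 18 genes (horizontal axis) in members (filled circles) and cycling cells (open squares) of shMib2 replicate 1, shMib2 replicate 2 and shCtrl (colors); each symbol is 1 library. All 18 genes were chosen among those that had passed the test, so the gaps between the states follow from that choice. The libraries of a state lay close together except for genes such as H2-K1, which was at 119.8, 145 and 79.96 CPM in members and 60.02, 65.3 and 31.6 CPM in cycling cells.

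Regulators of cycle entry and exit went in both directions. Of 21 genes in the list 19 were tested, of which 12 were higher and 5 lower in members, beside 26.2% and 29% over all genes. The median log2 fold change was 0.39. Among inhibitors of cyclin-dependent kinases, Cdkn1a (p21) had 337, 419 and 353 CPM in members of shMib2 replicate 1, shMib2 replicate 2 and shCtrl, against 173, 171 and 195 CPM in cycling cells, a rise of 1.03 ± 0.06 (SE; edgeR adjusted p = 8.43e-10). Cdkn1b (p27) had 85.2, 84.2 and 86.2 CPM against 55.8, 53 and 55.8 CPM, a rise of 0.63 ± 0.04. Cdkn2c (p18) went the other way, with 34.2, 29.3 and 35.3 CPM in members against 69.5, 63.6 and 71.1 CPM in cycling cells (log2 fold change -1.05). Cdkn2a, which encodes p16 and p19ARF, had no UMI in members of any library and at most 0.0646 CPM in cycling cells, so no comparison of it could be made.

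The early G1 cyclins Ccnd2 and Ccnd1 were higher in members, and Cdk4, a kinase they bind, was lower. Ccnd2 had 668, 589.8 and 623 CPM in members against 307, 293 and 294 CPM in cycling cells (1.07 ± 0.03), and Ccnd1 had 164, 154 and 172.5 CPM against 126, 118 and 130 CPM (0.39 ± 0.03). Cells with 1 of the 6 rule genes were near the members in Ccnd2, at 654.6, 603.8 and 607.4 CPM. Cdk4 had 279, 269 and 290 CPM in members against 374, 375 and 389 CPM in cycling cells (-0.45 ± 0.03). Of the pocket proteins, Rbl1 (p107) stood at 4.07, 2.87 and 3.67 CPM against 23.5, 22.15 and 19.4 CPM, while Rbl2 (p130), the member found in resting cells, had 11.6, 11.1 and 11.3 CPM against 11.5, 10.9 and 10 CPM and did not pass (edgeR adjusted p = 0.485). Foxo3, a transcription factor restrained by growth factor signaling, rose by 1.06, and the antiproliferative genes Ccng2 and Btg1 rose by 0.97 and 0.96.

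p53 targets leaned upward without moving as one. Of 20 tested, 13 were higher and 2 lower in members, beside 26.2% and 29% over all genes, with a median of 0.51. Besides Cdkn1a, Trp53inp1, which promotes autophagy and arrest, rose by 1.43, Plk2 by 0.98 and Phlda3, an AKT inhibitor, by 0.52. Gdf15 and Aen fell by 0.92 and 0.38, and Bax, with a log2 fold change of -0.08, did not pass.

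Genes induced by low oxygen rose together. Of 19 hypoxia genes tested 18 were higher and none lower in members, against the 26.2% of all genes that were higher, and the median log2 fold change was 0.96. Ero1l, an oxidase that forms disulfide bonds in the endoplasmic reticulum, had 931, 1088 and 991 CPM in members of shMib2 replicate 1, shMib2 replicate 2 and shCtrl against 267, 260.5 and 278 CPM in cycling cells. The mean was 1003 ± 79.6 CPM in members and 269 ± 8.85 CPM in cycling cells (SD, n = 3 libraries each), a log2 fold change of 1.89 ± 0.05 (SE; edgeR adjusted p = 1.39e-14). Car9, a carbonic anhydrase that exports acid, had 437, 482 and 476 CPM against 154, 139 and 158 CPM (1.62). Vegfa, the angiogenic factor, had 249.5, 232 and 199.7 CPM against 96.4, 78.9 and 73.6 CPM (1.45).

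The rest of the list moved alike. Slc2a1, the glucose carrier GLUT1, had 135, 140.1 and 145.5 CPM in members against 56.5, 55.9 and 58.5 CPM in cycling cells (1.29), and Bnip3, a mitophagy receptor, had 596, 660.5 and 632 CPM against 259, 249 and 260 CPM (1.29). Ndrg1 rose by 1.71, Ankrd37 by 1.36 and Mxi1, like Mxd4 an antagonist of MYC, by 1.30. Egln3, the exception, had 0.83, 1.87 and 1.22 CPM in members against 1.07, 0.85 and 0.94 CPM in cycling cells and did not pass (edgeR adjusted p = 0.262). The list had 18 higher genes in cells of 20000 to 40000 UMIs, with a median of 0.88, and when the rule was applied after thinning to 10000 UMIs, with a median of 0.77.

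Promoters of 3 of these genes are shown for the core that hypoxia-inducible factors bind, here taken as any of the word GACGTG, the word TACGTG and the word GGCGTG, on either strand in capitals, a search added after the values were seen. The sequences are again from RefSeq, GRCm38.p6, and end at the base before the start, for Car9 at chr4:43506906-43507025, Slc2a1 at chr4:119108625-119108744 and P4ha1 at chr10:59323176-59323295, each on the plus strand.
Car9: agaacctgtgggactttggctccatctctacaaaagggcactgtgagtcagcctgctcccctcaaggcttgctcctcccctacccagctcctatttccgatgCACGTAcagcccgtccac
Slc2a1: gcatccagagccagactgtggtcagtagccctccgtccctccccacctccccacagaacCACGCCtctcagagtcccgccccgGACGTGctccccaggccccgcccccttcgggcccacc
P4ha1: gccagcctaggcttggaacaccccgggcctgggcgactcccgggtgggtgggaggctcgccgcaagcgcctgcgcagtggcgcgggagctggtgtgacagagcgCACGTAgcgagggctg

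In windows of 300 bases, 14 of the 16 hypoxia genes with a window held 1 of the 3 cores, against 25.1% of all genes; 3 of the 6 rule genes held 1 as well. P4ha1, a collagen prolyl hydroxylase subunit, had a log2 fold change of 0.62. The matches are a description of letters and no factor was measured.

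Glycolysis genes rose with them. Of 13 tested 12 were higher and none lower, beside 26.2% and 29% over all genes, with a median of 0.48. Pfkp, the platelet-type phosphofructokinase, had 302, 302.5 and 298 CPM in members against 144, 144 and 139 CPM in cycling cells (1.07 ± 0.03; edgeR adjusted p = 7.58e-14), Hk2 had 335, 313 and 292.5 CPM against 193, 176.5 and 174 CPM (0.79), and Hk1 and Pfkl rose by 0.76 and 0.68. The abundant late enzymes moved less, with Ldha at 0.17 and Eno1 at 0.08, which did not pass.

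Members were not uniform in these genes. In cells thinned to 10000 UMIs, the 10th percentile, median and 90th percentile of hypoxia UMIs were 16.1, 63 and 124 in members of shMib2 replicate 1, 15, 69 and 137 in shMib2 replicate 2, and 19, 69.5 and 125 in shCtrl. In cycling cells the medians were 24, 22.5 and 25, and the 90th percentile was 72 in every library. Of members, 43.1%, 47.6% and 47.4% lay above that 90th percentile, while 19%, 15% and 15% lay at or below the cycling median. The hypoxia level was thus a range within members. In every library most of them lay above the cycling median, and a minority lay at or below it.

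**Figure D4:**
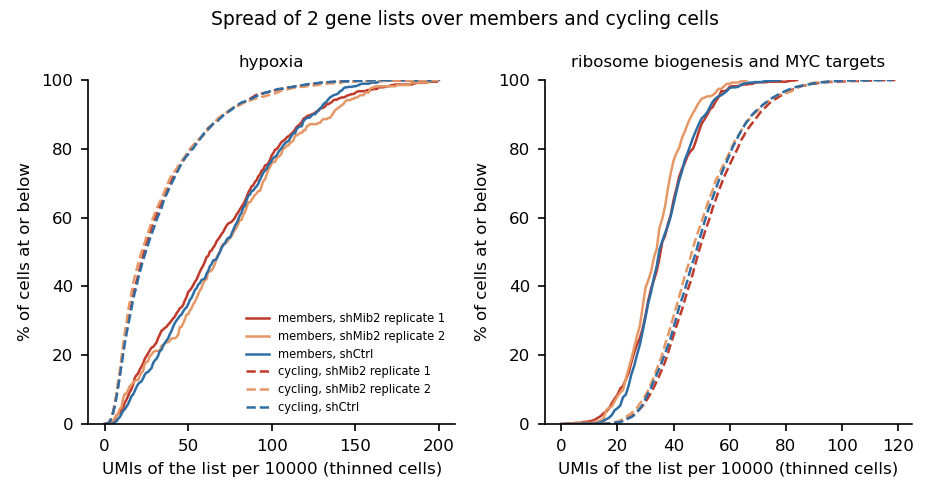
Percentage of cells at or below a given number of UMIs of the list per 10000 (vertical axes) against that number (horizontal axes), for the hypoxia list (left) and the ribosome biogenesis list (right); solid lines are members and dashed lines cycling cells, colored by library. Members had median hypoxia levels of 63, 69 and 69.5 UMIs against 24, 22.5 and 25 in cycling cells, and median ribosome biogenesis levels of 36, 34 and 35 against 49, 47 and 48.

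Growth genes went down. Of 23 genes of ribosome biogenesis and MYC targets, 22 were lower in members, beside 29% lower over all genes, and 1 was higher, with a median of -0.65. Ncl, nucleolin, had 434, 382 and 439 CPM in members of shMib2 replicate 1, shMib2 replicate 2 and shCtrl against 836, 819 and 807 CPM in cycling cells (-0.98 ± 0.04; edgeR adjusted p = 1.55e-12). Nop56, of the box C/D small nucleolar complex, had 81.9, 71.8 and 82 CPM against 168, 163 and 163 CPM (-1.07). Srm, spermidine synthase, and Nolc1 fell by 1.04 and 1.07, and Cad, which starts pyrimidine synthesis, and Dkc1, a pseudouridine synthase, fell by 1.23 and 1.22.

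The exception was Myc itself, with 40.7, 32.7 and 37.1 CPM in members against 30.3, 26.8 and 24.7 CPM in cycling cells, a rise of 0.44 ± 0.06 (SE; edgeR adjusted p = 5.82e-06). In cells of 20000 to 40000 UMIs the list had 19 genes lower and 1 higher, with a median of -0.53. Cytosolic ribosomal protein genes did not share the fall: of 82 tested 41 were higher and 9 lower, beside 26.2% and 29% over all genes. Their median was 0.11. Without the library block 16 were higher and 4 lower. Rpl22l1 rose by 0.48, and Rps27l, a p53 target, and Rpl7l1 fell by 0.44 and 0.55.

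Stress genes were higher in parts. Of 17 genes of the integrated stress response tested 12 were higher and 4 lower, beside 26.2% and 29% over all genes. Their median was 0.57. Nupr1, a stress-induced chromatin protein, had 145, 152.5 and 156 CPM in members of shMib2 replicate 1, shMib2 replicate 2 and shCtrl against 64.2, 58.9 and 71.7 CPM in cycling cells (1.21 ± 0.05; edgeR adjusted p = 3.70e-12). Cebpb had 59.2, 58.3 and 46.3 CPM against 24.9, 23.3 and 21.7 CPM (1.21), Atf3 rose by 1.12 and Sars, seryl-tRNA synthetase, by 0.66. The 4 that fell make serine and one-carbon units: Psat1, Phgdh, Shmt2 and Mthfd2 fell by 0.65, 0.40, 0.66 and 0.11. Atf4, the central factor of the pathway, had a log2 fold change of 0.08 and did not pass.

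Chaperones of the endoplasmic reticulum were mostly lower. Of 15 tested 2 were higher and 10 lower, beside 26.2% and 29% over all genes, with a median of -0.27. Calr, calreticulin, had 521, 448.5 and 461.5 CPM in members against 666, 591.5 and 592.5 CPM in cycling cells (-0.38 ± 0.03), and Creld2 and Dnajc3 fell by 0.52 and 0.41. Dnajb9 rose by 1.01 ± 0.06, with 34.1, 31.7 and 28.4 CPM in members against 16.2, 14.7 and 15.4 CPM in cycling cells.

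Immediate early genes were higher, with 12 of 16 higher and 2 lower in a list that also holds inducible heat shock genes (median 0.57). Over all genes 26.2% were higher and 29% lower. Klf6 had 159, 159.9 and 159 CPM in members against 78.3, 77.3 and 79.8 CPM in cycling cells (1.02 ± 0.04; edgeR adjusted p = 6.94e-13). Junb, Jun and Ier3 rose by 1.01, 0.79 and 0.86. Outputs of MAPK signaling moved with them: 8 of 10 tested were higher and 1 lower, with a median of 0.40. Spry2, a feedback inhibitor, had 42.5, 41.3 and 33.6 CPM against 22.8, 19.6 and 17.9 CPM (0.95), Phlda1 and Dusp4 rose by 0.62 and 0.40, and Etv4 fell by 1.14.

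Pigment genes leaned upward by small amounts. Of 17 tested 7 were higher and 2 lower, beside 26.2% and 29% over all genes, with a median of 0.08. In cells of 20000 to 40000 UMIs 10 were higher and 2 lower (median 0.18). With the rule applied after thinning 12 were higher and 3 lower (0.15). The median thinned cell held 114, 106 and 109 UMIs of the list in members of shMib2 replicate 1, shMib2 replicate 2 and shCtrl, against 101, 98 and 95 in cycling cells. Tyr, tyrosinase, had 493.5, 389 and 442 CPM in members of shMib2 replicate 1, shMib2 replicate 2 and shCtrl against 344.5, 300.1 and 285 CPM in cycling cells (0.51 ± 0.04), and Oca2, Met and Gpnmb rose by 0.87, 0.34 and 0.34. Mitf, the lineage factor, had a log2 fold change of 0.04 and did not pass, while Sox10 fell by 0.19 and Kit by 1.34. Dct and Pmel, which the rule used, had log2 fold changes of 0.26 and 0.22.

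Genes of the dedifferentiated melanoma state were higher in 5 of 12 tested and lower in none, beside 26.2% and 29% over all genes. Their median was 0.46. Beside Kdm5b and Jun, Vim, an intermediate filament gene, had 1664, 1888 and 1632 CPM in members against 1212, 1233 and 1185 CPM in cycling cells (0.51 ± 0.04), and Axl, a receptor kinase, had 10.8, 12 and 6.35 CPM against 8.77, 7.88 and 4.27 CPM (0.48 ± 0.10), with groups that overlapped across libraries. Of 16 tested factors secreted by arrested cells 3 were higher and 5 lower, with a median of -0.21, again near the shares over all genes. With DESeq2 2 were higher and 1 lower, and without barcodes of 2 or more UMIs of other markers 4 were higher and 1 lower of 8, with a median of 0.32. Timp3 and Spp1 rose by 0.90 and 0.49. Ccl2, with 1.58, 4.08 and 0.61 CPM in members against 9.56, 7.57 and 0.80 CPM in cycling cells, had -1.53 ± 0.26 and lost its call without barcodes carrying 5 or more UMIs of blood, immune and stromal markers (-0.20).

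Lysosome and autophagy genes rose by small and even amounts. Of 20 tested 19 were higher and none lower, beside 26.2% and 29% over all genes, with a median of 0.29. Gabarapl1, which conjugates to the autophagosome membrane, had 91.8, 91.2 and 88.3 CPM in members against 52.3, 51.4 and 50.5 CPM in cycling cells (0.81 ± 0.04; edgeR adjusted p = 3.35e-11). Ctsb, a lysosomal protease, had 324.5, 301 and 285 CPM against 220.3, 217 and 202.5 CPM (0.50), and Ctsl and Neu1 rose by 0.48 each. Sterol synthesis genes leaned down, with none of 18 higher and 10 lower (median -0.17), Mvk by 0.71 and Cyp51 by 0.39. Nuclear genes of the respiratory chain had 8 higher and 9 lower of 26, shares near the 26.2% and 29% over all genes (2 higher and 9 lower without the library block), with Ndufa1 rising by 0.38 and Atp5g1 and Uqcrc1 falling by 0.39 and 0.38.

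Interferon-induced genes went in both directions. Of 21 tested 9 were higher and 8 lower in members, beside 26.2% and 29% over all genes, with a median of -0.04. In cells of 20000 to 40000 UMIs 11 were higher and 1 lower (median 0.56). Without the library block 4 were higher and 0 lower, and with DESeq2 8 were higher and 4 lower. Those that rose included the chains of MHC class I. H2-K1 was at 119.8, 145 and 79.96 CPM in members of shMib2 replicate 1, shMib2 replicate 2 and shCtrl against 60.02, 65.3 and 31.6 CPM in cycling cells (1.15 ± 0.05; edgeR adjusted p = 3.51e-12), higher in members of each library. H2-T23, a nonclassical class I gene chosen after its values were seen, rose by 1.70, Isg15 by 0.76, and B2m and H2-D1 by 0.43 and 0.40. Cd274, which encodes PD-L1, had 4.24, 5.95 and 2.68 CPM in members against 3.01, 3.12 and 1.49 CPM in cycling cells, a rise of 0.75 ± 0.16 (edgeR adjusted p = 0.000764) from 51, 54 and 35 UMIs in members.

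The immunoproteasome genes did not follow the class I chains. Psmb8 had 13.8, 15.7 and 0.84 CPM in members against 19.8, 19.6 and 1.71 CPM in cycling cells (-0.45 ± 0.09), and Psmb9 fell by 0.47 ± 0.08, but in cells of 20000 to 40000 UMIs their log2 fold changes were 0.29 and 0.13 and did not pass, and neither passed without the library block. Irf1 fell by 1.01. The largest value in the list, 3.14 for Cxcl9, rested on a single cell: 870 of its 875 UMIs in shMib2 replicate 2 members came from 1 barcode, and without that library the value was -0.32 (edgeR adjusted p = 0.395).

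**Figure D5:**
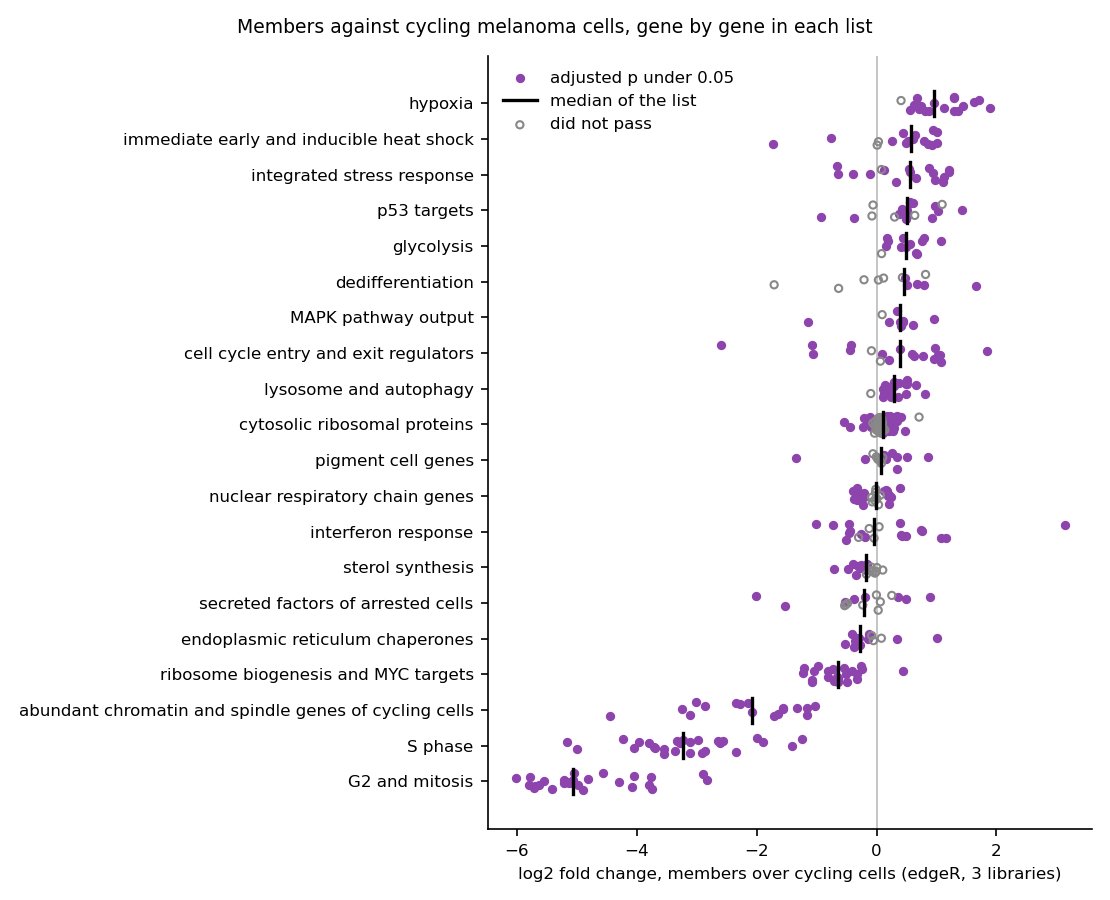
Log2 fold change of each gene, members over cycling cells (horizontal axis, edgeR over 3 libraries), in 20 gene lists (vertical axis, ordered by median); filled points passed at an adjusted p under 0.05, open points did not, and black lines are medians. The hypoxia list had the highest median, 0.96, and ribosome biogenesis stood at -0.65, above only the 3 cycle lists, whose medians were -2.08, -3.23 and -5.06.

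Members at low hypoxia levels are described with no test, and some differences were also present there while others were not. The 116, 41 and 98 members of shMib2 replicate 1, shMib2 replicate 2 and shCtrl at or below their library's cycling median of hypoxia UMIs were set against the 2014, 1277 and 2565 cycling cells in the same range; 34, 8 and 28 of these members lay within 5 UMIs of the limit. Their hypoxia lists differed by 0.19, 0.05 and 0.16 on the log2 scale of summed CPM, a value limited by the choice of these cells on that sum, while the median over the genes of the list was 0.37, 0.45 and 0.25. Glycolysis differed by 0.06, -0.14 and -0.01. Kcnj13 still differed by 3.79, 3.93 and 4.42, Mxd4 by 2.32, 2.15 and 2.23, Nupr1 by 1.93, 2.28 and 1.79 and Cdkn1a by 1.09, 1.24 and 1.24. Ribosome biogenesis differed by -0.76, -0.74 and -0.69 and the lysosome list by 0.46, 0.41 and 0.47. The interferon list differed by 0.78, 1.46 and 1.00, a ratio of sums that few barcodes can move and not a median over genes. By sums it was also higher over all members, at 1044, 1232 and 592 CPM against 797, 868 and 448 CPM in cells with all 6 rule genes. Between these ends the sums did not fall evenly. They were 1034, 1102 and 519 CPM at 2 rule genes and 1001, 918 and 486 CPM at 4. The 1232 CPM of shMib2 replicate 2 includes 96.5 CPM of Cxcl9, of which 870 of 875 UMIs came from 1 barcode. Sterol synthesis differed by 0.23, 0.10 and 0.20, and the chaperones of the endoplasmic reticulum by -0.02, 0.43 and 0.09, where the medians over all members were below 0. Among the largest rises over all members, Pkp2 differed by 0.35, -0.46 and -0.17 and Pgf by 0.21, -0.78 and 0.76 here, both at under 5 CPM. Slc2a1 differed by 0.19, -0.32 and -0.37, and Vegfa by 0.83, 0.97 and 0.86. Both are genes of the hypoxia list, so the choice of these cells on that list's sum also limits their values and the list's median.

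Members overlapped unevenly with states of melanoma cells defined by other genes. Car9 and Espn together averaged 6.27, 7.08 and 6.87 UMIs per 10000 in members of shMib2 replicate 1, shMib2 replicate 2 and shCtrl, against 2.201, 2.08 and 2.285 in cycling cells. Both genes were named above as higher in members, Car9 in the hypoxia list and Espn among the largest rises. Their sum restates those values and is no separate support. Cck and Car6 averaged 6.73, 8.09 and 5.705 against 5.51, 5.43 and 5.11, with a median of 1 in either state of every library. Cells with 5 or more UMIs of this pair per 10000 were 18.1%, 19% and 16.1% of members against 21.8%, 21.3% and 20.2% of cycling cells, so the share was lower in members of every library while the mean was higher, and the 5 highest members held 28.5%, 42.8% and 36.8% of the Cck UMIs of members.

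Between labels, members differed in few genes. Members of the 2 shMib2 libraries were set against those of the shCtrl library, with 1 residual degree of freedom and the lone shCtrl library assumed to vary like the others. Of 12224 genes tested 8 (0.0654%) were higher in shMib2 members and 0 were lower at an edgeR adjusted p under 0.05; at an unadjusted p under 0.05 there were 460 higher and 271 lower, and DESeq2 called 14 higher and 0 lower. The 8 were Cd74, Psmb8, Igtp, H2-Aa, Psmb9, Gbp2, H2-Ab1 and H2-D1. All are known targets of interferon gamma: class II antigen presentation (Cd74, H2-Aa, H2-Ab1), the immunoproteasome (Psmb8, Psmb9), defense GTPases (Igtp, Gbp2) and class I (H2-D1).

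Cd74, the class II invariant chain, had 48.6 and 54.3 CPM in members of shMib2 replicate 1 and replicate 2 against 4.06 CPM in members of shCtrl, a log2 difference of 3.65 ± 0.18 (SE; edgeR adjusted p = 0.00603) from 585, 493 and 53 UMIs. Those UMIs were concentrated: the 5 highest members held 47.4%, 58.8% and 79.2% of them. H2-D1 had 169 and 180 CPM against 85.4 CPM (1.02 ± 0.10; edgeR adjusted p = 0.0379), and the shMib2 values lay above the shCtrl value for each of the 8 genes. Psmb8 had 13.8 and 15.7 CPM against 0.84 CPM, where shCtrl rests on 11 UMIs. Gbp2 and Igtp differed by 2.28 and 2.21, and H2-Aa, H2-Ab1 and Psmb9 by 3.94, 3.21 and 2.50. B2m (0.81; edgeR adjusted p = 0.152) and Cd274 (0.90; edgeR adjusted p = 0.798) did not pass.

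The same difference between labels was seen in cycling cells. Cd74 stood at 34.1 and 32.5 CPM in cycling cells of the shMib2 libraries against 2.94 CPM in those of shCtrl, and Psmb8 at 19.8 and 19.6 CPM against 1.71 CPM. The interaction of state and label, which asks whether the difference between members and cycling cells was another one in shMib2 than in shCtrl, was 0.23 ± 0.21 for Cd74 and 0.67 ± 0.35 for Psmb8 on the log2 scale (SE), with an edgeR adjusted p of 1 for each. Of 15429 genes tested the interaction passed in 2 (0.013%), 1 positive (Cck, 0.00648%) and 1 negative (Meg3, 0.00648%), and no gene of the hypoxia, ribosome biogenesis, lysosome or stress lists was among them. With 2 calls in all, that absence says little about these lists. In the hypoxia list within members, 0 of 19 genes passed between labels, beside 0.0654% of all genes, so this count says little about the list. Its median log2 difference was 0.02, beside 0.01 over all genes.

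Transcripts of other cell types in member barcodes are given beside these results. The leukocyte gene Ptprc stood at 1.00, 2.65 and 0.15 CPM in members of shMib2 replicate 1, shMib2 replicate 2 and shCtrl, the 5 NK cell markers together at 6.15, 6.5 and 0.383 CPM, and the 6 T cell markers together at 2.08, 10.6 and 1.30 CPM. Each was higher in both shMib2 libraries than in shCtrl, the T cell markers by a smaller margin in replicate 1. Their part in the label difference was not tested. The 5 genes of the erythroid list, mainly hemoglobins, summed to 274, 455 and 216 CPM in members against 286, 289 and 133 CPM in cycling cells. Of the 5, 4 passed as higher in members, though the sum was lower in members of shMib2 replicate 1. Few cells carried these UMIs: the 5 highest members held 69.1%, 87% and 80.6% of the Hba-a1 UMIs of members. Fibroblast markers summed to 36.3, 207 and 30.5 CPM in members against 220, 124 and 9.8 CPM in cycling cells; of the Col1a1 UMIs in members of shMib2 replicate 2, 92.9% came from 5 barcodes. Of the 8 markers of mononuclear phagocytes, C1qc and Adgre1 were at 0 in members of every library, as were 3 of 4 keratinocyte markers. Of the 4 endothelial markers Kdr was at 0, and the 2 tested were higher in members, Pecam1 at 5.74, 6.17 and 5.36 CPM against 2.82, 2.72 and 3.07 CPM and Vwf at 14.8, 12.3 and 11.1 CPM against 10.04, 9.33 and 8.65 CPM in cycling cells. The B cell list summed to 6.82, 8.6 and 6.35 CPM in members against 3.72, 5.52 and 4.15 CPM in cycling cells, and 3 of 4 tested were higher. Igkc in that list had 20, 20 and 2 UMIs in members, from 4, 4 and 2 cells. These counts of higher markers are to be read beside the 26.2% over all genes. The part of these cell types in the differences was not tested.

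Without barcodes that held 5 or more UMIs of blood, immune and stromal markers, a limit chosen after the values were seen, 3974 genes were higher and 4290 lower in members. The hypoxia list then had 18 of 19 higher (median 0.95), ribosome biogenesis 22 of 23 lower (-0.66) and the lysosome list 18 of 20 higher (0.29), so the values of these groups were as large without those barcodes. Within members 41 genes were then higher and 3 lower in shMib2 than in shCtrl.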

How the data were processed

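The 3 libraries were single-cell RNA-Seq of dissociated B16-F10 tumors. As deposited, the matrices hold whole-number UMI counts by gene and barcode; per the submitters' processing notes the authors used Cell Ranger 4.0.0 and mm10. Total UMIs were 190904274 in shMib2 replicate 1, 203298455 in shMib2 replicate 2 and 243926188 in shCtrl, over 9428, 8388 and 9558 barcodes and 32285 genes. Counts were summed over members and over cycling cells of each library. The sums were tested with edgeR 4.0.16 (glmQLFit and glmQLFTest, TMM, filterByExpr) in R 4.3.3, with Benjamini-Hochberg adjustment over all genes tested at 0.05, and with DESeq2 1.42.0 as an alternative. The 6 rule genes were left out. The same library gives both states, so the library was the block. Standard errors are the size of the log2 fold change over the root of the F statistic. Nothing says that the libraries stand for separate experiments, so p-values measure only the spread between these pooled libraries. For each gene edgeR takes that spread partly from the other genes tested, so a small p does not rest on that gene's counts alone. Thinning drew 10000 UMIs per cell without replacement. No doublet caller was run, and free RNA was not removed; barcodes with the highest UMI totals were left out as an alternative. The tests were tested on simulated counts. Gene positions are on GRCm38. Python 3.11.15 and matplotlib 3.10.9 were used for the rest. Alternatives were other scalings, count filters, depth windows, quality limits, definitions of cycling cells, no library block and leaving out each library.

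The members and gene lists were chosen with earlier results of these data known, so no list is independent support. Named genes were the 6 rule genes, Dct, Pmel, Mib2 and Cd274; for members against cycling cells, the 12 largest changes each way that passed and had 1 sign in all libraries at 20 CPM or more on average, outside the cycle lists, the markers of other cell types, ribosomal protein genes and predicted genes; the 4 lowest p of each list; the leading genes between labels at that same level; and the interactions that passed. The other genes with values, among them list members outside the 4 (such as Car9, Bnip3, Egln3, Myc, Kit and Irf1), the genes below that level between labels, H2-T23, Car6 and Cxcl9, were chosen after their values were seen.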

Additional observations from a re-analysis of the deposited data

Results flagged for a closer look

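The difference between members and cycling cells was itself different in shMib2 than in shCtrl for 2 genes, by the edgeR quasi-likelihood test of the interaction of state and label. For Meg3, a long noncoding RNA, the interaction was -5.01 ± 0.52 on the log2 scale (SE; edgeR adjusted p = 3.06e-06). It rests on few UMIs: 17 and 14 in members of shMib2 replicate 1 and replicate 2 against 36 in members of shCtrl, all 36 of them in 1 cell, and 500 and 250 in cycling cells of the shMib2 libraries against 27 in those of shCtrl. The sign was reversed at 1% or more Dct and Pmel (5.45) and without barcodes of 5 or more UMIs of blood, immune and stromal markers (3.39), and neither value passed.

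For Cck, which encodes the peptide cholecystokinin, the interaction was 0.42 ± 0.08 (SE; edgeR adjusted p = 0.0454). It no longer passed under 6 of 11 alternatives: DESeq2, RLE factors, 50 or more UMIs, 20000 to 40000 UMIs, 1% or more Dct and Pmel, and without barcodes of 2 or more UMIs of other markers. Cck stood at 564 and 665 CPM in members of the shMib2 libraries against 466 CPM in members of shCtrl, and at 363 and 372 CPM in their cycling cells against 356 CPM in those of shCtrl. The 5 highest members held 28.5%, 42.8% and 36.8% of the Cck UMIs of members in shMib2 replicate 1, shMib2 replicate 2 and shCtrl.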

How the results depend on the processing

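Of members against cycling cells, 102 of 118 named genes tested kept direction and side of the threshold under all 17 alternatives. Of 10 named genes between labels within members 5 did so under all 11, and of the 2 interactions 0. Without each library in turn, 3436 to 3676 genes were higher and 3685 to 4354 lower, and without barcodes of 2 or more UMIs of other markers 2665 were lower. Without the library as replicate block, 3383 were higher and 3667 lower, and Pmel, Cd274, Axl, B2m, H2-D1, Ndufa1, Fdps, Ccl2, Rps27, Cd74, Psmb8, Psmb9 and H2-Ab1 no longer passed. Mib2 had a log2 fold change of -0.02 with no count filter, -0.03 against cells with at least 1 rule gene, and -0.10 to 0.16 without a library. Psmb8 and Psmb9 turned to 0.29 and 0.13 at 20000 to 40000 UMIs, and Cxcl9 ranged from -0.32 to 4.74 without a library.

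Within members, genes higher in shMib2 than in shCtrl numbered 14 with DESeq2, 182 with no count filter, 5 at 50 or more UMIs, 52 with the rule applied after thinning, 21 at most 10% mt- UMIs, 13 at 1% or more Dct and Pmel, 22 without the highest UMI totals, and 41 without barcodes of 5 or more blood, immune and stromal UMIs (chosen after seeing the data). Genes lower numbered 31, 1 and 3 with no filter, after thinning and without those barcodes. Of the 8 genes called between labels, H2-D1 did not pass at 50 or more UMIs or at 20000 to 40000 UMIs, Gbp2 at 50 or more UMIs, H2-Ab1 at 50 or more UMIs, at 1% or more Dct and Pmel and without barcodes of 2 or more other-marker UMIs, and Igtp without those last barcodes. Mib2 was 0.01 after thinning and 0.19 without barcodes of 2 or more other-marker UMIs. The interaction passed in 1 gene with DESeq2, with RLE factors and at 50 or more UMIs, 20 with no filter, 17 at 20000 to 40000 UMIs, 6 after thinning, 0 at 1% or more Dct and Pmel, and 5 without barcodes of 5 or more blood, immune and stromal UMIs; Meg3 was 5.45 and 3.39 under these last 2. The causes were not tested. Leaving out a library left no residual degree of freedom for either, so those fits gave no value.

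Member shares in shMib2 replicate 1, shMib2 replicate 2 and shCtrl were 17.4%, 19.8% and 16.1% after thinning, 6.02%, 14.8% and 5.59% at 20000 to 40000 UMIs, 13.2%, 12% and 10.4% without barcodes of 2 or more other-marker UMIs, and 10.5%, 8.26% and 9.01% without the highest totals. At 20000 or more UMIs they were 5.26%, 6.71% and 4.59%, at 1% or more Dct and Pmel 10.3% in shMib2 replicate 1, and without barcodes of 5 or more marker UMIs 10.6% and 9.23% in the shMib2 libraries. Depth limits which cells count as members, and low genes such as Mib2 could not be compared closely.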
